A study of Mus musculus with 2 samples.

Results

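Interleukin 10 (IL-10) and transforming growth factor beta (TGF-beta) are cytokines known to restrain macrophages of the gut. The account below follows 10 genes of the pair of pathways in macrophages of the mouse colon: the ligand Il10, its receptor chains Il10ra and Il10rb and the transcription factor Stat3, and the ligand Tgfb1, its receptors Tgfbr1 and Tgfbr2, the signal carrier Smad3 and the feedback inhibitors Smad7 and Skil. They were chosen by name, as the probe sets whose only listed gene symbol is one of these, and all 10 of 10 were found, among 19938 genes named in the same way. Each had 1 probe set, and no member appeared on a probe set shared with another gene.

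The series set macrophages of colitis beside control macrophages. The control array held RNA from mice given plain drinking water for 5 days, and the DSS array RNA from mice whose water held 3% (wt/vol) dextran sulfate sodium (DSS) for the same 5 days. This sulfated sugar polymer damages the colonic epithelium and is a common way to induce colitis in mice. Both groups were lamina propria cells, from the tissue layer under the epithelium, sorted fresh as CD45+IAb+CD11b+F4/80+CD103-; the labels name no strain, age, sex or genotype, nor the number of mice behind an array. Since each group has 1 array, no replicate error, p-value or standard error can be given, and each difference is between these 2 arrays. Where values are given in pairs, control comes first and DSS second.

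IL-10 binds a receptor of 2 kinds of chain: Il10ra encodes the ligand-binding chain, found mostly on blood cells, and Il10rb the chain shared with receptors of IL-22 and related cytokines. The bound receptor activates the kinases JAK1 and TYK2, which phosphorylate STAT3, and STAT3 in turn induces genes that lower the output of inflammatory cytokines. Mice that lack Il10, or whose macrophages lack Il10ra, are known to develop colitis. TGF-beta is secreted in a latent form and, once released, is bound by the type II receptor TGFBR2, which recruits and activates the type I receptor TGFBR1; this phosphorylates SMAD2 and SMAD3, which enter the nucleus with SMAD4. SMAD7, which blocks the receptor, and SKIL (SnoN), which blocks SMADs at their targets, are made in response and close the loop.

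The promoters of both TGF-beta receptor genes are shown first, because Tgfbr2 had the largest difference among the 10 members, lower on the DSS array, and Tgfbr1, its partner in the receptor, differed little. The sequences are from RefSeq (build GRCm38.p6), 250 bases before to 50 bases after the gene's start, 5′ to 3′ on the gene's strand. RefSeq promoters were matched for 5 of the 10 members. The search did not cover every chromosome, but this was not shown to account for each unmatched member. Tgfbr2 lies at chr9:116175314-116175613 on the minus strand, and the first of the listed Tgfbr1 starts at chr4:47352972-47353271 on the plus strand. Capitals mark the GC box GGGCGG or its reverse complement.
Tgfbr2: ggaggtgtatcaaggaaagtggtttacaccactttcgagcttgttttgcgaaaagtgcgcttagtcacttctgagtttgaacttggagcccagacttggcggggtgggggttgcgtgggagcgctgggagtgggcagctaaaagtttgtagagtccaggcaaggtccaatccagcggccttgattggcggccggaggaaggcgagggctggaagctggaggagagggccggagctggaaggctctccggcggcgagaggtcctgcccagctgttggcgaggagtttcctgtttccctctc
Tgfbr1: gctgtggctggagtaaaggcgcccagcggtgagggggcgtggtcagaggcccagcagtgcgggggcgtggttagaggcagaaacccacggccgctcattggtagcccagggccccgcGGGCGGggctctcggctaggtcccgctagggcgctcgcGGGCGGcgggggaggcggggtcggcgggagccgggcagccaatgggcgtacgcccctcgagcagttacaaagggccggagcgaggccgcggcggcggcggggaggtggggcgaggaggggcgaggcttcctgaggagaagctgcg
The Tgfbr1 window holds 2 GC boxes, which 35.6% of 32817 RefSeq promoter windows of this length hold at least once, and the Tgfbr2 window holds 0. The window of the other listed Tgfbr1 start, not printed, also holds 0, so the contrast between the genes is that of the first start alone. Bases G and C make up 74.7% of the printed Tgfbr1 window, 52.0% of the other Tgfbr1 window and 59.0% of the Tgfbr2 window, against a median of 52.7% over all windows. None of the 3 windows holds the palindromic SMAD binding element GTCTAGAC (in 0.213% of windows), the STAT site TTCNNNGAA (8.29%) or the TATA box TATAAA (13.6%); both strands were searched, and no match overlapped another. A match describes letters only, and the arrays measure RNA, not binding.

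Among the 10 genes, Tgfbr2 was lower by more than 2-fold on the DSS array, Il10 followed at just under 2-fold, and the other 8 lay within 1.5-fold. No member was 2-fold higher. The share of all 11163 genes past the signal rule that were at least 2-fold lower was 3.03%, and the share at least 2-fold higher was 3.99%, beside 1 of 10 and 0 of 10 members. A count of 1 gene is too few to read against that background. At 1.5-fold, 2 of 10 members were lower and 0 higher, against 8.8% and 9.85% of all genes. The signal rule kept a gene that reached the array's median on at least 1 array (5.70 in control and 5.62 in DSS, log2), and all 10 members reached it on both. The median difference of the members was -0.14 (log2, DSS minus control) and that of all genes past the rule was -0.03.

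**Figure D1:**
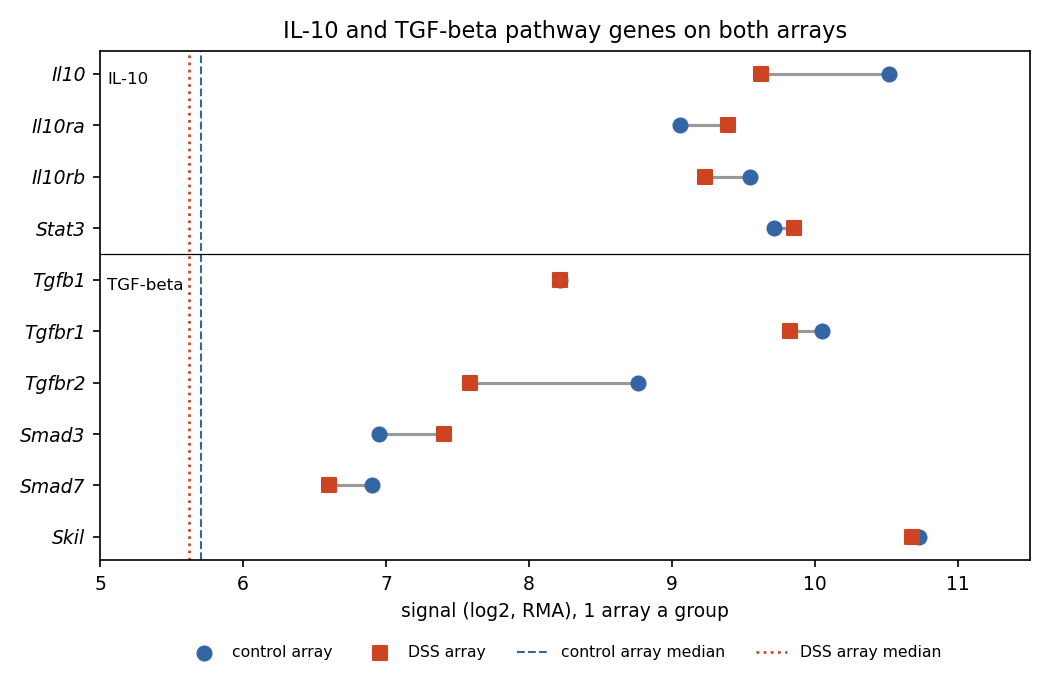
Log2 signal of each member, with the control array as circles and the DSS array as squares, 1 array a group, and the array medians as vertical lines. Tgfbr2 (8.76 and 7.58) and Il10 (10.52 and 9.62) show the long gaps, and the Tgfb1 marks lie on each other.

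Il10, the ligand, had a signal of 10.52 in control macrophages and 9.62 after DSS. Both were far above the array medians, and the control array was the brighter one. The difference of -0.89 is 1.86-fold, and 432 of the 11163 genes (3.87%) had a difference as low or lower. Loess centring, which removes a trend of the difference with signal, put Il10 at -1.003, just past 2-fold, and median centring put it at -0.79. In RNA from a pool of sorted cells, fewer cells that make a transcript and less of it per cell cannot be told apart. Markers of resident intestinal macrophages were lower on the same DSS array, with a list median of -2.18. The list of macrophages in general, which shares several genes with the resident one, had a median of -0.61.

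Both receptor chains for IL-10 were well above the medians and moved little, in opposite directions. Il10ra, the ligand-binding chain, read 9.06 in control and 9.39 in DSS, a difference of 0.33. Il10rb, the shared chain, read 9.55 and 9.23, a difference of -0.32. These are 1.26-fold and 1.25-fold, and 40.9% and 43.0% of all genes lay at least as far from 0. Set against each other within an array, Il10 relative to Il10ra differed by -1.23 (log2, DSS minus control), or 2.34-fold, and Il10rb relative to Il10ra by -0.65.

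Stat3, the transcription factor that acts after the receptor, read 9.71 in control and 9.85 in DSS. The difference of 0.14 is 1.10-fold, and 71.8% of all genes lay at least as far from 0. The STAT3 messenger RNA does not show how much of the protein is phosphorylated.

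Tgfb1, the TGF-beta ligand gene of most immune cells, read 8.22 on both arrays. Its difference, 0.004, was the smallest among the members, and 98.9% of all genes lay further from 0 or as far. It took the opposite sign, at -0.04, under loess centring, and has no direction here.

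The receptor genes differed from each other. Tgfbr2, the type II receptor that binds the ligand, read 8.76 in control and 7.58 in DSS, so the DSS signal was the lower one while still 1.97 above its array's median. The difference of -1.18 is 2.26-fold, and 243 of 11163 genes (2.18%) had a difference as low or lower. Tgfbr1, the type I receptor kinase, read 10.05 and 9.82, a difference of -0.23 or 1.17-fold. Relative to Tgfbr1, Tgfbr2 differed by -0.95 (log2, DSS minus control), or 1.93-fold. Median centring put Tgfbr2 at -1.07 and loess centring put it at -1.21, past 2-fold in each. Tgfbr1 stood at -0.12 and -0.33 under the same centrings. The alternative probe set choices, signal rules and floor could not change either value, because each gene has 1 probe set, above both array medians.

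Smad3, the signal carrier, was the member furthest in the higher direction, at 6.95 in control and 7.40 in DSS. Its difference of 0.45 is 1.37-fold, and 1577 genes (14.1%) were as high or higher. Smad7, the inhibitor induced by the pathway, read 6.90 and 6.60, a difference of -0.30 or 1.23-fold. These were the members nearest the array medians, 1.25 and 1.20 above it on the control array, where RMA (robust multi-array average) shrinks differences. Smad7 relative to Smad3 differed by -0.76 (log2, DSS minus control), or 1.69-fold. Skil, the corepressor, read 10.73 in control and 10.68 in DSS, a difference of -0.05. Median centring turned it to 0.06, and Skil has no direction here.

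**Figure D2:**
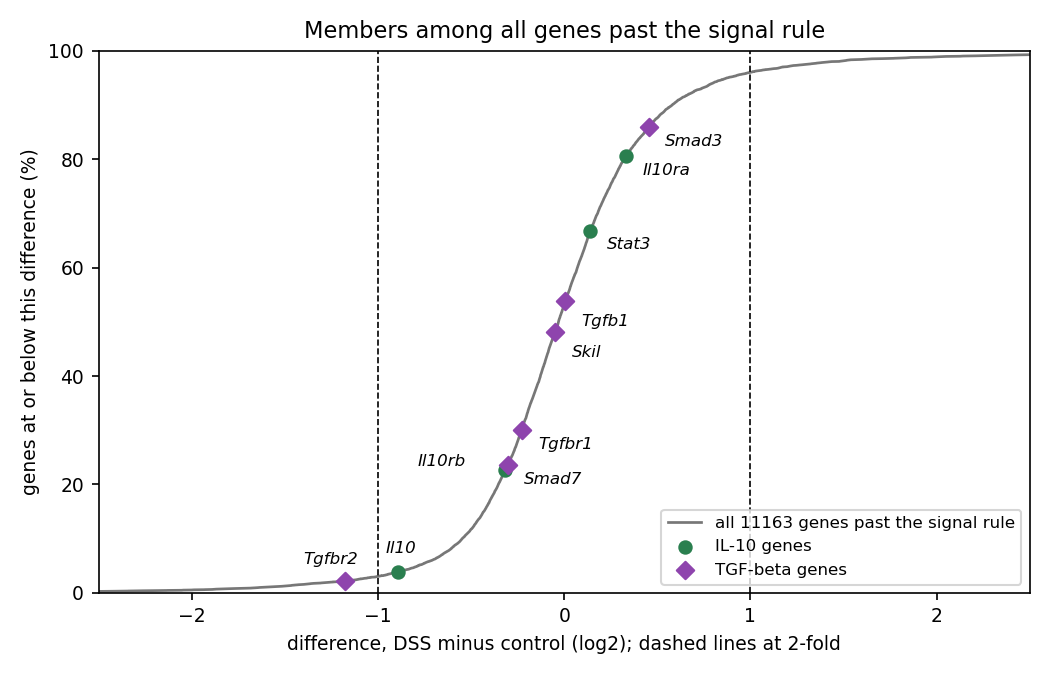
Share of the 11163 genes past the signal rule (vertical axis, percent) at or below a difference (horizontal axis, log2, DSS minus control), with the members as points. Tgfbr2 at 2.18% and Il10 at 3.87% lie in the lower tail, and Smad3 at 85.9% is the highest member.

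The other genes of both pathways were taken from 10 lists by role, with 122 different genes, of which 116 had a probe set with 1 gene symbol and 98 passed the signal rule. Of the 98, 11 (11.2%) were at least 2-fold higher in DSS and 3 (3.06%) at least 2-fold lower, beside 3.99% and 3.03% of all genes. Of the 11 higher genes, 5 were targets of IL-10 repression. The median difference of the 98 was 0.08. The lists were chosen with earlier results of these data known, so the shares describe the lists only. No test was made of any list.

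The kinases of the IL-10 receptor and related STATs differed little, with 5 of 5 measured genes inside 2-fold (median 0.10). Tyk2, a receptor kinase, read 6.78 in control and 6.50 in DSS, and Stat5b, a related factor of other cytokine receptors, 6.52 and 6.90. Jak1, the other receptor kinase, named after its values were seen, read 10.88 and 10.94. Of 8 other ligands and receptors of the IL-10 family, 6 were under the medians of both arrays. The 2 above were the receptor chains Il20rb, at 7.08 and 6.81, and Il22ra1, at 6.10 and 5.96.

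Genes that IL-10 induces through STAT3 in macrophages mostly stayed inside 2-fold. All 16 were measured and passed the signal rule. Of these, 1 exceeded 2-fold upward and 1 downward, beside 3.99% and 3.03% of all genes. Counts of 1 are too few to read against those shares. The other 14 stayed inside 2-fold. Of the 16, 11 were above 0 (median 0.20), as were 5179 of the 11163 genes past the signal rule. Irak3, which restrains signalling by Toll-like receptors, read 8.27 in control and 9.47 in DSS, or 2.31-fold higher. Hmox1, the haem-degrading enzyme, read 10.58 and 8.83 and was 3.37-fold lower. Socs3, the feedback inhibitor of STAT3-activating receptors, named after its values were seen, read 9.09 and 9.16. Several of these genes also answer to Toll-like receptors or interferons, and the arrays do not separate the inputs.

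Genes that IL-10 is known to repress lay mostly higher, in a list chosen with earlier results of these data known. All 15 were measured, and 5 exceeded 2-fold upward and 0 downward, beside 3.99% and 3.03% of all genes. The other 10 stayed inside 2-fold. Of the 15, 13 were above 0 (median 0.69), as were 5179 of the 11163 genes past the signal rule. Il6, a cytokine of the acute phase, read 6.42 in control and 8.98 in DSS. Il23a, a subunit of IL-23, read 6.58 and 8.82. Il12a, a subunit of IL-12, read 5.00 and 6.74. All 3 were thus brighter on the DSS array, by 5.91-fold, 4.74-fold and 3.35-fold. The T cell attractant Cxcl9 was 6.54-fold higher and the nitric oxide synthase Nos2 6.79-fold. The control signals of Il12a and Nos2 were under the array's median of 5.70, so their folds start from dim signals. Those of Il6 and Il23a were not far above that median. No background level was measured to tell such signals from. Cxcl1, a neutrophil attractant, lay furthest the other way, at 10.27 and 9.81. Tnf, the other gene below 0, read 10.74 and 10.72, a difference of -0.03. Cxcl2 and Cd40 differed by 0.12 and 0.24. Tnf, Cxcl2 and Cd40 were named after their values were seen. Neutrophil and monocyte markers were also higher on the DSS array, with list medians of 4.11 and 4.23, and their part in this list was not tested.

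TGF-beta ligands and the genes that store and release the latent protein had 11 genes past the signal rule. The DSS array exceeded the control array 2-fold for 2 of them and the reverse held for 0, beside 3.99% and 3.03% of all genes. The list's median was -0.15. Thbs1, which encodes thrombospondin 1, an activator of latent TGF-beta, read 10.82 in control and 12.16 in DSS, or 2.52-fold higher. Mmp9, a protease that can release it and also a gene of the neutrophil marker list, read 7.80 and 8.99. Itgav, the alpha V chain of the integrins that activate the latent form, read 10.28 and 9.54, or 1.67-fold lower. Its partner chains in that activation, Itgb6 and Itgb8, and the ligands Tgfb2 and Tgfb3, named after their values were seen, were under the medians of both arrays. Nrros, which anchors latent TGF-beta on myeloid cells and was also named after its values were seen, read 9.99 and 9.59.

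Of the co-receptors, 4 passed the signal rule and all 4 lay within 2-fold. Eng, which encodes endoglin, read 6.95 in control and 6.27 in DSS. Acvrl1, another type I receptor, read 8.20 and 7.96, and the decoy receptor Bambi 6.30 and 6.42. In the list of other SMAD genes with Zfyve9 added (median 0.09), 1 of 6 exceeded 2-fold upward and 0 downward. Of all genes, 3.99% and 3.03% did so. The gene past 2-fold in that list was Zfyve9, which encodes the SMAD anchor SARA and no SMAD. It read 5.43 in control, under the array's median, and 6.60 in DSS. Smad5, which serves BMP receptors, read 8.14 and 7.65. Smad2 and Smad4, the partners of Smad3, named after their values were seen, had differences of 0.10 and 0.24.

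The 14 SMAD corepressors and receptor feedback genes all stayed inside 2-fold (median -0.14). Pmepa1 and Ldlrad4, related membrane proteins that hold SMADs away from the receptor and are themselves induced by TGF-beta, had the largest differences. Pmepa1 read 8.65 and 7.74, a 1.88-fold lower value, and Ldlrad4 read 7.25 and 6.50, or 1.68-fold lower. Strap, which binds the receptors and SMAD7, read 8.91 and 9.33.

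Of 12 genes past the signal rule that TGF-beta induces in various cells, 1 was past 2-fold upward and 1 downward (median -0.19). The shares of all genes were 3.99% and 3.03%, and counts of 1 are too few to read against them. Tgm2, the crosslinking enzyme transglutaminase 2, read 7.86 in control and 9.69 in DSS. Nuak1, a kinase, read 5.99 and 4.84, and its DSS signal was under the array's median. In the activin and BMP branch, 1 of 14 passed 2-fold upward and 1 downward (median -0.07), beside the same shares of all genes. Inhba, the activin A subunit, read 5.99 in control and 9.53 in DSS, an 11.6-fold difference that was the largest of all the pathway genes examined. Its control signal was little above that array's median of 5.70, so this fold starts from a dim signal. Bmp2, a BMP ligand of muscularis and other gut macrophages, read 8.63 and 6.64, or 3.97-fold lower.

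**Figure D3:**
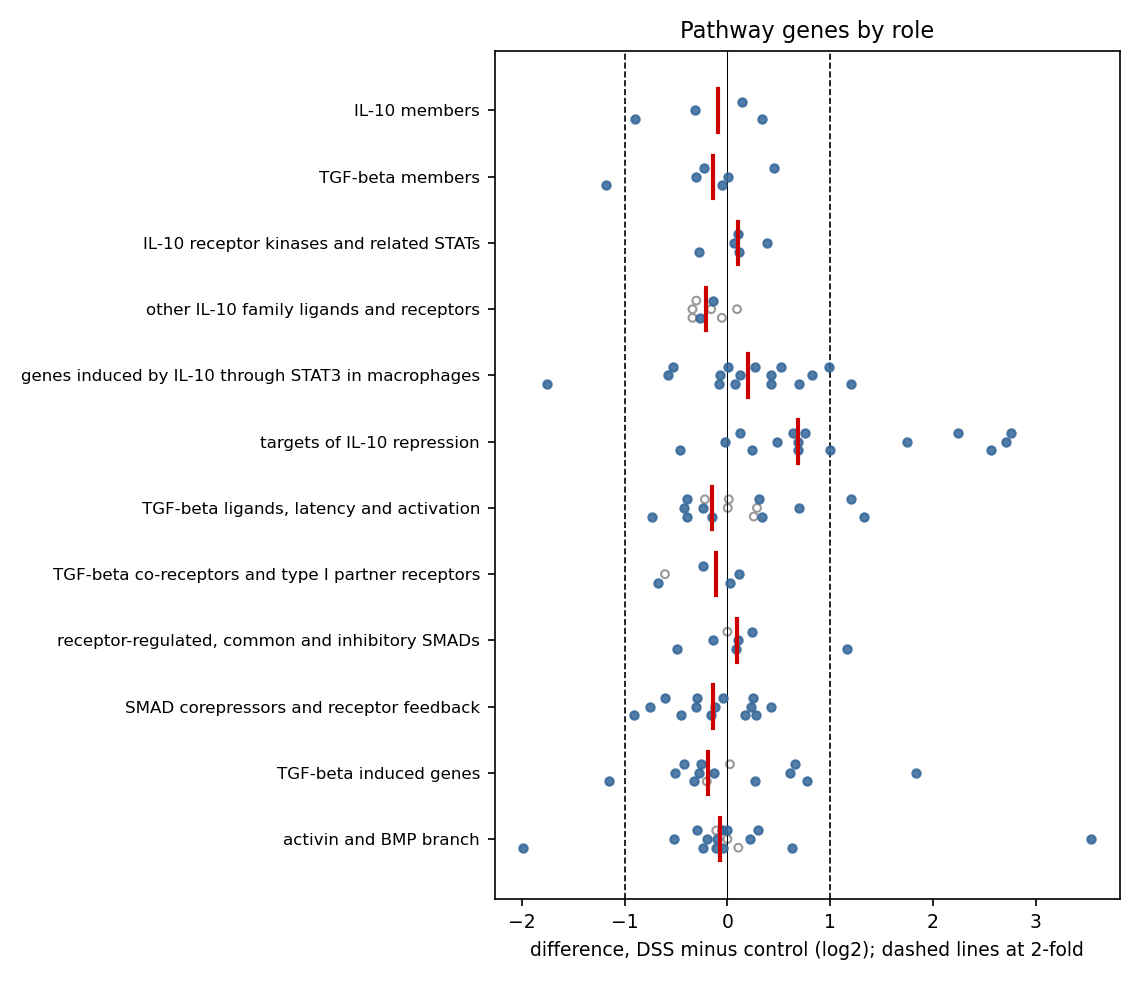
Difference of each pathway gene (horizontal axis, log2, DSS minus control) by role, with list medians as red bars, genes past the signal rule as filled points and genes under both medians as open ones. The targets of IL-10 repression have a median of 0.69, and the other lists have medians between -0.20 and 0.20.

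Markers of cell types moved on the same arrays, beside Il10 and Tgfbr2. The sort antigens Ptprc, H2-Ab1, Itgam and Adgre1 were well above the medians on both arrays, with differences of 0.40, 0.14, 0.60 and -0.82, and Itgae (CD103) was under both medians, at 4.89 and 4.91. The macrophage list had 0 of 9 genes at 2-fold and a median of -0.61, with Csf1r, the receptor for the macrophage growth factor, at -0.66 and Cx3cr1, a chemokine receptor of gut macrophages, at -0.99. In that list 7 of 9 genes were below 0 and 2 above it, the Fc receptor gene Fcgr1 at 0.83 and the endotoxin co-receptor gene Cd14 at 0.53. The summed linear signal of this list, which adds up the signals taken out of the log, was 21843 in control and 16767 in DSS. The resident intestinal macrophage list had 7 of 12 genes at least 2-fold lower, a median of -2.18 and a summed signal of 22004 in control and 8953 in DSS. It shares Mertk, C1qa, C1qb, C1qc and Cx3cr1 with the macrophage list, so their medians and sums are not independent. Outside that overlap, the macrophage list holds Csf1r and Cd68, lower at -0.66 and -0.61, and Fcgr1 and Cd14, which were higher. The neutrophil list had 12 of 13 genes at least 2-fold higher, and its summed signal went from 2083 to 33798. The monocyte list had 7 of 8 higher and 1 lower, and went from 4327 to 19283. Its lower gene, F13a1, was the brightest of that list on the control array, at 11.41 in control and 9.53 in DSS. Of the T and NK cell list, 4 of 11 genes passed the signal rule and 3 of these were at least 2-fold lower, with a summed signal of 1656 in control and 782 in DSS. The lower genes were Cd4, Il7r and Cd2, while the T cell receptor components Cd3d, Cd3e and Cd3g stayed under each array's median. In the list for B and plasma cells 1 of 6 was higher and 0 lower, in that for dendritic cells 0 of 7 higher and 1 lower, in that for epithelium 3 of 9 higher and 0 lower, and in that for fibroblasts, muscle and endothelium 0 of 7 either way, all counted at 2-fold. No value in the table was 0, since RMA signals have no true zero. The part of these cell types in the differences of Il10, Tgfbr2 and the pathway lists was not tested.

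**Figure D4:**
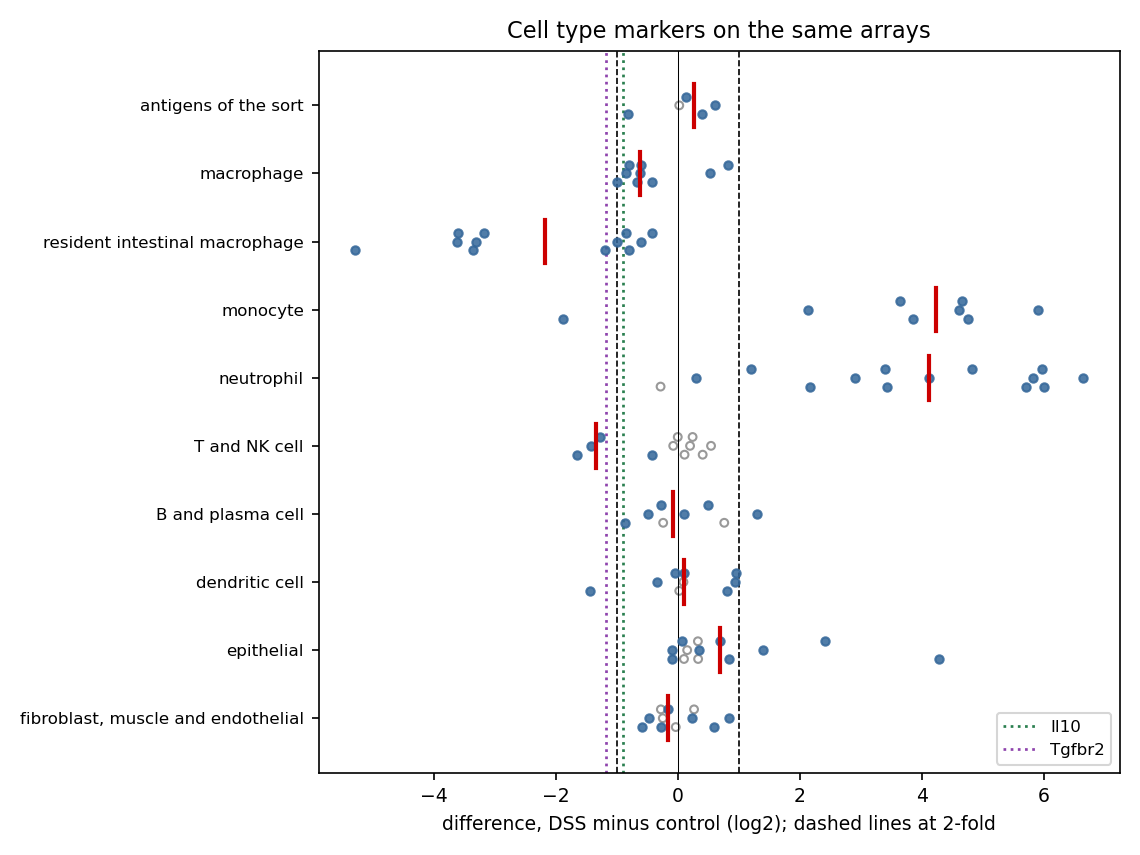
Difference of each marker gene (horizontal axis, log2, DSS minus control) by cell type, with list medians as red bars and the differences of Il10 (-0.89) and Tgfbr2 (-1.18) as dotted lines. Neutrophil and monocyte genes lie mostly to the right, at medians of 4.11 and 4.23, and resident macrophage genes to the left, at -2.18.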

How the data were processed

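The members and the gene lists were chosen with earlier results of these data known. The table deposited by the authors holds a log2 signal for each of 35556 probe sets on 2 arrays. Per the submitters' processing notes it was made with RMA; version, settings and genome build were not found in those notes or the labels. Values were used as deposited. RMA shrinks differences between dim probe sets, and with 1 array in each group, batch and treatment cannot be told apart.

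The platform annotation listed 21789 probe sets with 1 gene symbol, 21698 of them matched to RefSeq by Entrez identifier, 1621 with several and 12146 with none. Where a gene had several probe sets, the brightest on average was used. Array medians rest on 28939 probe sets, without 6617 numbered below the lowest listed one. Genes were counted at 2-fold, since no test was possible. Named genes are all 10 members and, from each other pathway list, those past 2-fold (or the 2 furthest from 0) and the gene furthest the other way. Member probe sets list 1 to 3 RefSeq mRNAs, so isoforms are not separated. The calculation was run on simulated data with shifts larger than any member's difference, which checks the arithmetic and not smaller shifts. Alternatives covered scaling, probe set choice, signal rule, floor and size. The number of arrays limits the precision. Tools were Python 3.11.15, numpy 2.4.6, pandas 2.3.3, statsmodels 0.14.6 and matplotlib 3.10.9.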

Additional observations from a re-analysis of the deposited data

How the results depend on the processing

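No paired analysis was possible because each group has 1 array. A value was taken to have moved when it differed by more than 0.28 (log2). This is the pooled SD of the differences of probe sets within 641 genes. It measures the spread between probe sets of the same gene, not between mice or arrays. A count was taken to have moved when it differed by over 1.5 times. The count of members at least 2-fold lower was 1, and 2 under loess centring, where Il10 also passed. Counted at 1.5-fold it was 2, and at 3-fold it was 0. The 0 members at least 2-fold higher remained 0 under every alternative run. Each member has 1 probe set and reached both array medians, so only centring and the size counted could change the member counts. Among genes of the other lists, 11 were at least 2-fold higher and 3 lower; at 1.5-fold these were 24 and 8, and at 3-fold 7 and 2. Median centring moved the median of all genes from -0.03 to 0.08. With it the IL-10 members' median turned from -0.09 to 0.02 and that of the activin and BMP list from -0.07 to 0.03. The median of the list of other SMAD genes and Zfyve9 turned to -0.02 when both arrays had to reach their median, which left Zfyve9 out. That of the latency and activation list turned to 0.01 without a signal rule. None of the medians of the members or of the pathway lists moved by over 0.28, and no difference past 2-fold changed sign. Median centring adds the same amount to every gene, less than 0.28, so it could do neither. The probe set choices, signal rules and floor could not change the members' medians either. For the members, only loess centring could have given another outcome. Some marker medians moved with the signal rule. Without it they went from -1.34 to 0.00 for T and NK cells, from 0.69 to 0.33 for epithelium and from 4.11 to 3.77 for neutrophils. With both arrays required they went from -2.18 to -1.09 for resident macrophages, from 0.69 to 0.21 for epithelium, from 4.11 to 3.39 for neutrophils and from 4.23 to 3.85 for monocytes. No background level was measured, so dim signals cannot be told from background.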
